A study of Mus musculus with 3 samples.

Results

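The 7 microRNAs described here are the 5p and star arms of the miR-290 cluster: mmu-miR-290-5p, mmu-miR-291a-5p, mmu-miR-291b-5p, mmu-miR-292-5p, mmu-miR-293*, mmu-miR-294* and mmu-miR-295*. They were chosen by name, and they are 7 of the 709 microRNA assays on 2 qRT-PCR plates. The cells were NSCs derived from fetal mouse forebrain (neural stem cells), ESCs (mouse embryonic stem cells) and MEFs (mouse embryonic fibroblasts), with 1 sample of each. The labels call the NSC sample the test and the ESC and MEF samples controls, and they name no strain, age, allele, passage, feeder layer or treatment for any of them. Total RNA was pooled in equal amounts before profiling. Small RNAs were poly-A tailed and reverse transcribed from an oligo-dT adaptor, and each assay was amplified with SYBR Green in 2 PCR runs. A Ct is the cycle at which a well reached its threshold, so a lower Ct means more RNA. A delta Ct is the mean Ct of an assay minus the mean Ct of the reference RNAs U6, RNU43 and U1 of the same plate and cell type. Subtracting 1 cell type's delta Ct from another's gives a log2 fold, which is positive where the first-named cell type has more. Errors come from the 2 PCR runs of 1 sample and cover PCR error alone, so no test between cell types was possible and none was made. A call required a 4-fold difference or more, PCR runs of both cell types that stayed apart in delta Ct, and a mean Ct no later than 32 in the cell type with more RNA.

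The miR-290 cluster is a mouse microRNA polycistron, a set of hairpins cut from a shared primary transcript, and it is known as a locus of high activity in mouse ESCs that is silenced as they differentiate. Each hairpin is cut into a duplex of a 5p and a 3p strand. In this cluster the 3p strand is generally the guide that is loaded into Argonaute, and in most hairpins it carries the AAGUGC seed shared with the miR-302 family, which is known to promote cell cycle progression and pluripotency. The 5p strand is generally the passenger. In the assay names a star marks this strand in miR-293, miR-294 and miR-295, and the other hairpins use 5p and 3p. A microRNA recognises its targets mainly through its seed, bases 2 to 8.

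The mature sequences below show how alike the members are at the seed, which is in capitals. All 7 were matched in RefSeq annotation of GRCm38.p6, and all lie on the plus strand of chromosome 7. They are given in the order in which they lie in the genome.
mmu-miR-290-5p: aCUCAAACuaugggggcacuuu
mmu-miR-291a-5p: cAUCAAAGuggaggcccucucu
mmu-miR-292-5p: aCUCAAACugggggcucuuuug
mmu-miR-291b-5p: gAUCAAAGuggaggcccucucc
mmu-miR-293*: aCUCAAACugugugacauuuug
mmu-miR-294*: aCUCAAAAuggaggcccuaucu
mmu-miR-295*: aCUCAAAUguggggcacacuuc
The positions were chr7:3218639-3218660 for miR-290-5p, chr7:3218932-3218953 for miR-291a-5p, chr7:3219200-3219221 for miR-292-5p and chr7:3219494-3219515 for miR-291b-5p. The star arms lay at chr7:3220356-3220377 for miR-293*, chr7:3220655-3220676 for miR-294* and chr7:3220779-3220800 for miR-295*. The members thus span 2162 bases. RefSeq names them miR-290a-5p, miR-292a-5p, miR-293-5p, miR-294-5p and miR-295-5p, and keeps the names of both miR-291 arms. All except miR-290-5p lie inside the extent of the long noncoding RNA gene D7Ertd143e and of the protein-coding gene Nlrp12. Their place in exons or introns was not determined.

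The members fell into 4 seeds. miR-290-5p, miR-292-5p and miR-293* shared CUCAAAC, whereas miR-294* had CUCAAAA and miR-295* had CUCAAAU. The seeds of these 5 arms therefore differ at no base but the last. miR-291a-5p and miR-291b-5p shared AUCAAAG and were identical at 20 of 22 positions, with the differences C1G and U22C counted from the 5′ end of miR-291a-5p. The other 20 pairs of members were identical at 11 to 18 positions, and the closest of them was miR-291a-5p with miR-294*. Primer sequences were not used here, so whether an assay also detects a close relative was not tested. The 3p partners of the hairpins are shown for their different seed, and 6 of the 7 were matched.
mmu-miR-290-3p: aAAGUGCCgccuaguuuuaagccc
mmu-miR-291a-3p: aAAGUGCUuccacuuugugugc
mmu-miR-291b-3p: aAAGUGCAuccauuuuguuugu
mmu-miR-293: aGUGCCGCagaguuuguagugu
mmu-miR-294: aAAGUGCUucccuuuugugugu
mmu-miR-295: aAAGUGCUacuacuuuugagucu
Among these, miR-291a-3p, miR-294 and miR-295 shared the seed AAGUGCU. No seed was shared between a 5p or star arm and a 3p arm.

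Over both plates, 686 assays had a Ct in NSCs, 680 in ESCs and 700 in MEFs. For assays with a mean Ct up to 32, paired runs lay a median of 0.169 cycles apart in NSCs, 0.168 in ESCs and 0.152 in MEFs, and for later assays 0.548, 0.653 and 0.520 cycles in the same order. None of the 12 no-template wells had a Ct. The cell type markers followed the labels in part: NSCs had 3 of 4 neural markers called higher and 6 of 7 ESC markers called lower than ESCs did, and ESC markers had a mean Ct of 32.5 to 39.1 in NSCs, 23.5 to 33.5 in ESCs and 31.9 to 40.0 in MEFs. The ESC markers were miR-302a, miR-302b, miR-302c, miR-302d, miR-367, miR-294 and miR-295, and miR-294 and miR-295 are 3p partners of members, so this check is not independent of the cluster. The 8 fibroblast microRNAs, however, had Ct values of 26.7 to 30.5 in ESCs, against 24.0 to 28.8 in MEFs, and only 1 of them was called lower in ESCs than in MEFs, at a median log2 fold of -1.06. In NSCs they had Ct values of 27.9 to 36.0, and 7 of the 8 were called lower there than in ESCs, at a median of -5.89. The fibroblast microRNAs were miR-199a-3p, miR-199a-5p, miR-214, miR-143, miR-145, miR-10a, miR-10b and miR-196a. The neural markers were miR-9, miR-9*, miR-124 and miR-219, of which miR-124 was not called between NSCs and ESCs. The part of fibroblast RNA in the members' values was not tested.

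Of the 7 members, 6 were measured in all 3 cell types. Among the arms on plate 1, miR-290-5p had Ct values of 30.46 and 29.97 in NSCs, 29.92 and 29.79 in ESCs, and 29.31 and 29.47 in MEFs. miR-291a-5p, the earliest member in every cell type, was at 27.64 and 27.62 in NSCs, 28.47 and 28.46 in ESCs, and 27.29 and 27.10 in MEFs. miR-292-5p was at 30.42 and 30.09 in NSCs, 28.83 and 28.90 in ESCs, and 29.57 and 29.55 in MEFs. Before any reference was applied, only miR-292-5p of these was earliest in ESCs, and miR-290-5p and miR-291a-5p were earliest in MEFs. On plate 2, miR-293* was late throughout, with 34.85 and 34.45 in NSCs, 34.34 and 33.66 in ESCs, and 32.77 and 34.14 in MEFs. Its ESC and MEF runs overlapped in Ct, and its 2 MEF runs lay 1.37 cycles apart, the widest gap of any member. miR-294* had Ct values of 32.30 and 32.11 in NSCs, 29.36 and 29.23 in ESCs, and 32.38 and 32.12 in MEFs. miR-295* was at 30.03 and 30.64 in NSCs, 29.83 and 30.22 in ESCs, and 30.81 and 31.16 in MEFs. miR-294* was the only member whose ESC wells stood clear of both other cell types by over 2 cycles, whereas the NSC and ESC runs of miR-295* overlapped.

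**Figure D1:**
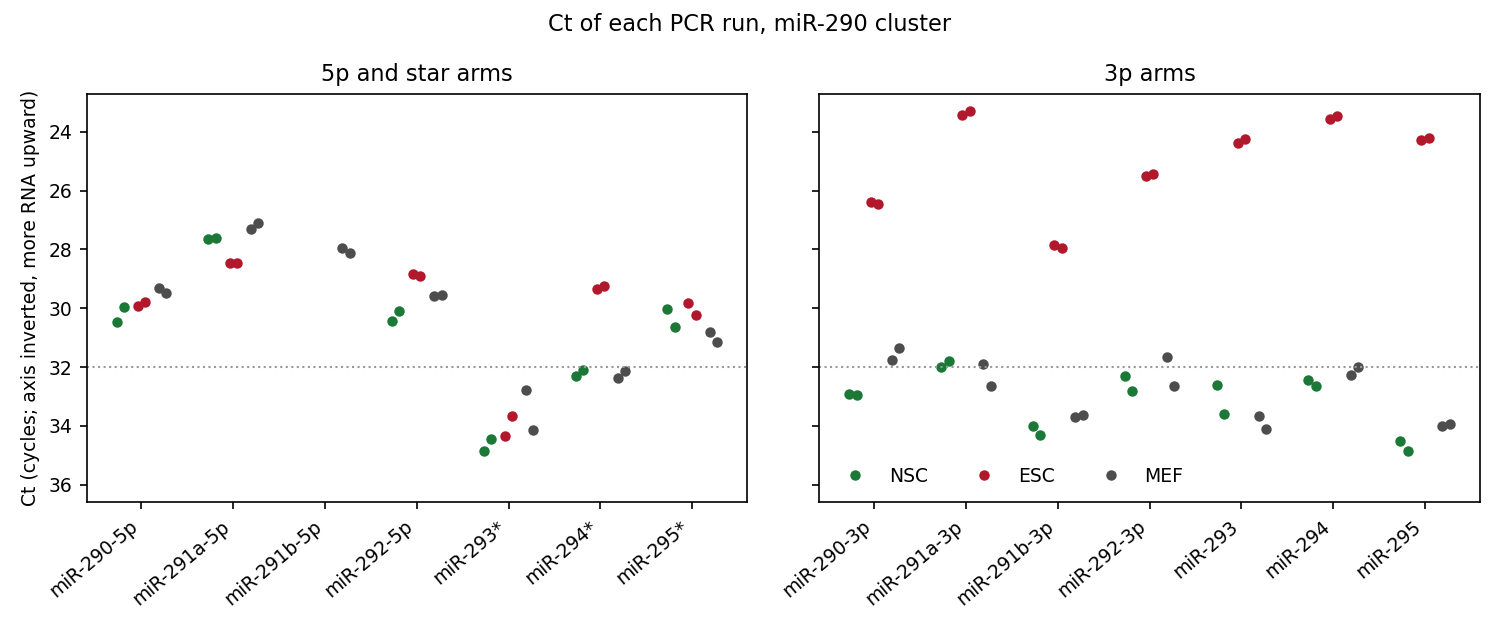
Ct in cycles of each PCR run (axis inverted, so more RNA lies higher) for the 5p and star arms (left) and the 3p arms (right) of the miR-290 cluster, with NSCs in green, ESCs in red, MEFs in grey and a dotted line at a Ct of 32. The 5p and star arms of all cell types lie between 27.1 and 34.9 cycles, whereas the 3p arms lie between 23.3 and 28.0 cycles in ESCs and between 31.4 and 34.8 in NSCs and MEFs.

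Relative to the reference RNAs, all 6 measured members had their highest level in ESCs. The order was ESCs, then MEFs, then NSCs in 5 of them, and ESCs, then NSCs, then MEFs in miR-295*. The delta Ct of miR-294* was 8.14 ± 0.13 in NSCs, 3.14 ± 0.10 in ESCs and 7.86 ± 0.18 in MEFs (SD of 2 PCR runs, as for the values that follow). miR-292-5p had 6.32 ± 0.23, 2.97 ± 0.05 and 5.21 ± 0.01 in NSCs, ESCs and MEFs. miR-295* had 6.27 ± 0.43, 3.87 ± 0.28 and 6.60 ± 0.24 in that order. The ESC level stood apart from NSCs and from MEFs by more than the run error in these 3 arms, as in all 6 measured members. The NSC and MEF levels of miR-295* overlapped. miR-290-5p had a delta Ct of 6.28 ± 0.35 in NSCs, 3.97 ± 0.10 in ESCs and 5.04 ± 0.12 in MEFs. miR-291a-5p was the flattest member, at 3.70 ± 0.01 in NSCs, 2.57 ± 0.01 in ESCs and 2.85 ± 0.14 in MEFs. miR-293* had 10.6 ± 0.29 in NSCs, 7.84 ± 0.48 in ESCs and 9.07 ± 0.97 in MEFs, so that its ESC and MEF levels were 1.23 apart with a run error of 0.77. Because the samples are bulk RNA, a smaller number of expressing cells and less RNA per cell cannot be told apart.

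All 6 measured members were lower in NSCs than in ESCs, as were 444 of the 678 assays measured in both cell types. The members' runs did not overlap in delta Ct, and the share of all assays with runs apart was not counted. The largest difference was in miR-294*, 31.9-fold lower in NSCs, with a log2 fold of -4.997 ± 0.12 (run error). miR-292-5p was 10.2-fold lower (-3.35 ± 0.16), miR-295* 5.28-fold (-2.40 ± 0.37) and miR-290-5p 4.99-fold (-2.32 ± 0.25). These 4 members were called lower in NSCs and 0 were called higher, whereas of the 678 assays measured in both cell types 14.9% were called lower and 2.95% higher. miR-293* was 6.69-fold lower (-2.74 ± 0.40) but was not called, since its mean Ct was 34.0 in ESCs, its higher cell type. miR-291a-5p was 2.19-fold lower (-1.13 ± 0.01), below the fold needed for a call. The members' median log2 fold was -2.57, against -0.42 over all assays.

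The reference RNAs came up earlier in NSCs than in ESCs. Their mean Ct, NSC minus ESC, was -1.96 cycles on plate 1 and -2.09 cycles on plate 2. In raw Ct, miR-294* was 2.91 cycles later in NSCs than in ESCs and miR-292-5p 1.39 cycles later, and miR-293*, miR-290-5p and miR-295* were 0.654, 0.357 and 0.311 cycles later. miR-291a-5p came earlier in NSCs, with a difference of -0.833 cycles. Only miR-294* therefore differed in raw Ct by more than the references did. The median raw difference of all assays, NSC minus ESC, was -1.50 cycles on plate 1 and -1.70 on plate 2, so that all 6 measured members were later in NSCs relative to the median assay of their plate. The references were also uneven: on plate 1 the difference was -2.59 cycles for U6 and -2.31 for U1, whereas it was -0.988 for RNU43, which had 1 run in ESCs. With RNU43 alone, the median of all assays moved to 0.56 on the log2 scale, the members' median was -1.59, and miR-290-5p and miR-295* were no longer called. The same 2 calls were lost with the mean of the early microRNAs of the plate as the reference, where the members' median was -1.89. Over these 5 references miR-294* ranged between -5.50 and -4.02, miR-292-5p between -3.98 and -2.38 and miR-291a-5p between -1.76 and -0.16, and no member changed sign.

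**Figure D2:**
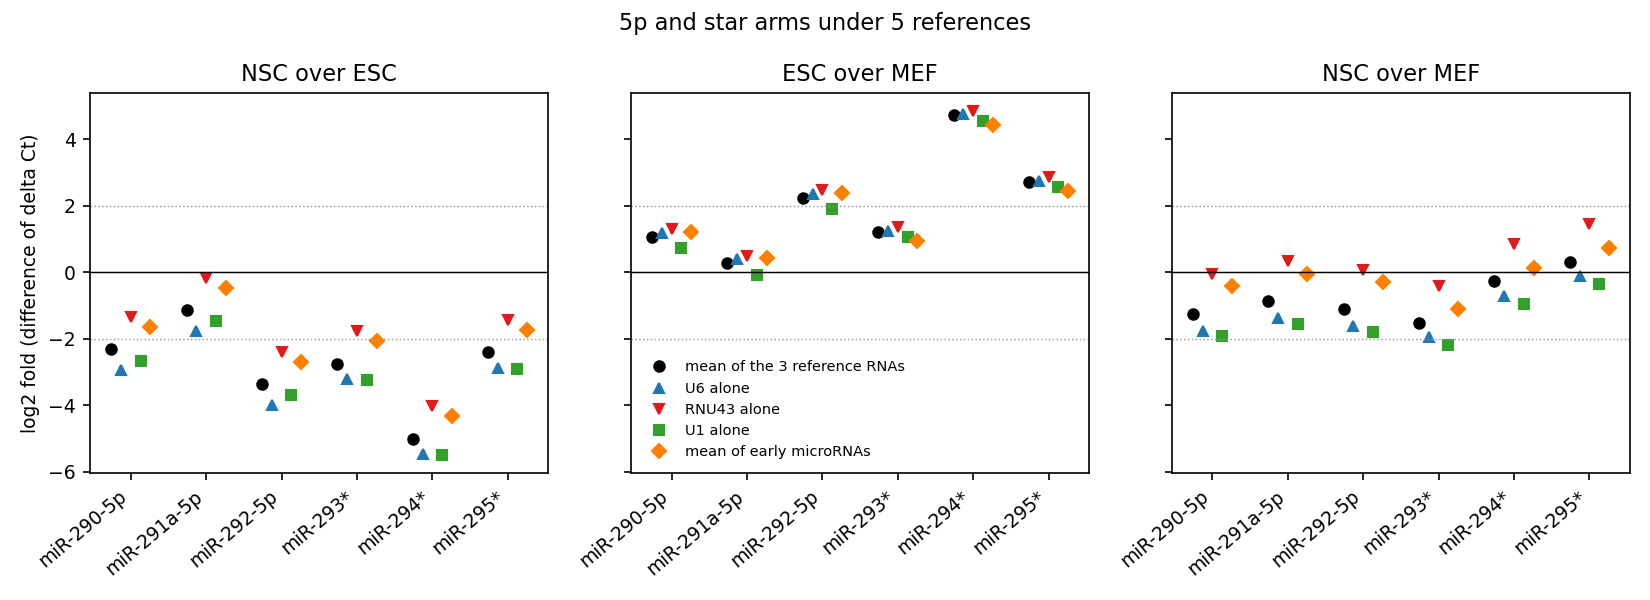
Log2 fold (difference of delta Ct) of the 6 measured 5p and star arms under 5 references, for NSCs over ESCs, ESCs over MEFs and NSCs over MEFs, with dotted lines at a 4-fold difference. All points are below 0 for NSCs over ESCs, miR-291a-5p reaches -0.07 with U1 alone for ESCs over MEFs, and points lie on both sides of 0 for NSCs over MEFs.

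The order of the members within their own plate does not depend on the references. Among the 323 assays of plate 2 measured in NSCs and ESCs, and counted from the lowest fold, miR-294* had rank 7, miR-293* rank 26 and miR-295* rank 35. Among the 355 of plate 1, miR-292-5p had rank 69, miR-290-5p rank 93 and miR-291a-5p rank 129. The star arms are all on plate 2 and the 5p arms all on plate 1. The plates hold different assays, so ranks of different plates are not on 1 scale and do not compare star with 5p arms.

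In ESCs over MEFs, all 6 measured members were higher in ESCs, with a median log2 fold of 1.73 against -0.11 over all assays. Of the 679 assays measured in both cell types, 308 were higher in ESCs. The largest difference was in miR-294*, 26.5-fold higher in ESCs (4.73 ± 0.15), followed by miR-295* at 6.62-fold (2.73 ± 0.26) and miR-292-5p at 4.73-fold (2.24 ± 0.03). These 3 members were called higher in ESCs and 0 were called lower, where 5.3% of the 679 assays measured in both were called higher and 3.24% lower. The remaining members missed the fold: miR-293* was 2.34-fold higher (1.23 ± 0.77), miR-290-5p 2.11-fold (1.08 ± 0.11) and miR-291a-5p 1.21-fold (0.28 ± 0.10). With U1 alone, miR-291a-5p turned to -0.07 and miR-292-5p, at 1.899, was no longer called. The references were 1.55 cycles later in ESCs than in MEFs on plate 1 and 1.77 on plate 2, and in raw Ct 3 members were earlier in ESCs and 3 were later. Within its plate, counted from the highest fold, miR-294* had rank 2 of 323 and miR-295* rank 9, miR-293* had rank 34, and on plate 1 miR-292-5p had rank 38 of 356, miR-290-5p rank 70 and miR-291a-5p rank 120. This comparison and the one above share the ESC sample.

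**Figure D3:**
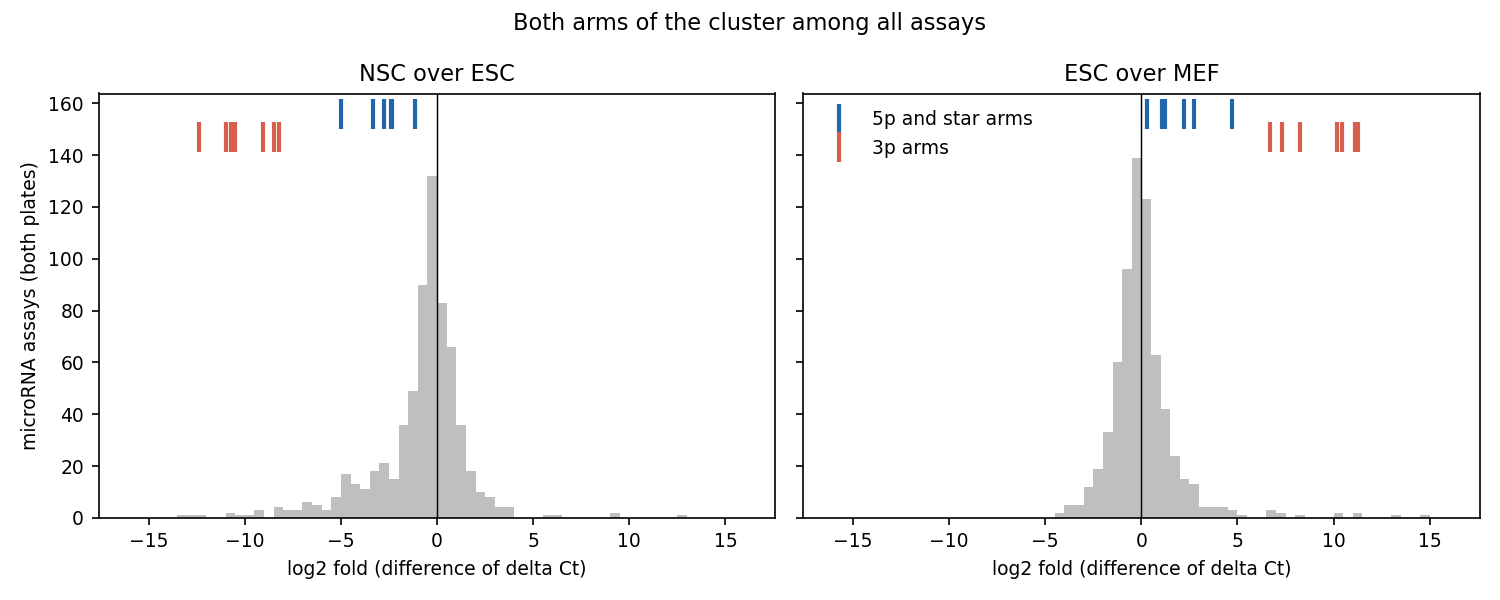
Number of microRNA assays of both plates (grey bars) by log2 fold (difference of delta Ct), for NSCs over ESCs and ESCs over MEFs, with blue ticks for the 5p and star arms and orange ticks for the 3p arms of the cluster. The blue ticks lie between -4.997 and -1.13 on the left and between 0.28 and 4.73 on the right, nearer to 0 than every orange tick.

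Between NSCs and MEFs no member was called, in either direction, where 1.75% of the 685 assays measured in both were called higher in NSCs and 13.9% lower. The log2 folds of NSCs over MEFs were -1.52 ± 0.71 for miR-293*, -1.24 ± 0.26 for miR-290-5p, -1.11 ± 0.16 for miR-292-5p, -0.85 ± 0.10 for miR-291a-5p, -0.27 ± 0.16 for miR-294* and 0.33 ± 0.35 for miR-295*. The runs overlapped in miR-295* alone, and the share of all assays with overlapping runs was not counted. Of the 685 assays, 462 had a log2 fold below 0, as did 5 of the 6 measured members. The members' median was -0.98, against -0.48 over all assays, and with RNU43 alone it turned to 0.22, where the median of all assays was 0.67. The direction between NSCs and MEFs was therefore not settled by these references. With no Ct limit and a fold of at least 4 the count also stayed at 0.

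miR-291b-5p was the exception among the members. It had no Ct in either run of NSCs or of ESCs, but Ct values of 27.96 and 28.13 in MEFs, with a delta Ct of 3.70 ± 0.12. It has no fold in any comparison above, since the empty wells were not filled in. Its near-identical relative miR-291a-5p had a Ct in every well of all 3 cell types, and its own 3p partner miR-291b-3p had a mean Ct of 34.1 in NSCs, 27.9 in ESCs and 33.7 in MEFs. Of the 709 assays, 21 had no value in both NSCs and ESCs, and 7 of these, miR-291b-5p included, had a value in both MEF wells and a mean MEF Ct no later than 32. The other 6 were miR-127, miR-188-5p, miR-22, miR-343, miR-449c and miR-615-5p, with mean Ct values of 26.3 to 31.6 in MEFs. They were chosen after their values were seen. An empty well is not a measured absence of the microRNA.

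The 3p arms of the same hairpins differed far more between the cell types. All 7 were called lower in NSCs than in ESCs, with log2 folds of -12.40 to -8.20 and a median of -10.49, and all 7 were called higher in ESCs than in MEFs, with 6.69 to 11.28 and a median of 10.16. Between NSCs and MEFs 0 of the 7 were called, at a median of -0.82. Over all assays, 14.9% were called lower in NSCs than in ESCs and 5.3% higher in ESCs than in MEFs. Between NSCs and MEFs, 13.9% of all assays were called lower in NSCs and 1.75% higher. For NSCs over ESCs, the fold of the 5p or star arm minus that of the 3p arm was 6.16 ± 0.26 on the log2 scale for miR-290, 9.36 ± 0.12 for miR-291a and 5.71 ± 0.31 for miR-292. In these 3 hairpins both arms lay on plate 1, so the references cancel. For the hairpins with arms on different plates it was 7.99 ± 0.64 for miR-293, 5.97 ± 0.16 for miR-294 and 10.0 ± 0.40 for miR-295. The 5p or star arm was thus less reduced in NSCs in 6 of 6 hairpins, at a median difference of 7.07. As ratios of folds, these gaps ran from 52.3-fold in miR-292 to 1025-fold in miR-295.

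For ESCs over MEFs the same differences were -5.61 ± 0.23 for miR-290, -10.19 ± 0.38 for miR-291a, -5.997 ± 0.51 for miR-292, -9.87 ± 0.80 for miR-293, -5.43 ± 0.19 for miR-294 and -8.55 ± 0.27 for miR-295. The 3p arm showed the larger fold in all 6 hairpins, and the gap was widest in miR-291a. For NSCs over MEFs the differences lay between -1.88 and 1.45, with a median of 0.13 and 3 hairpins on each side of 0. Hairpins differed in how far the 5p or star arm moved with its partner: for NSCs over ESCs, miR-294* had the largest fold of its arm beside -10.97 ± 0.11 for miR-294, whereas miR-291a-5p had the smallest beside -10.49 ± 0.12 for miR-291a-3p. The mean Ct of the 3p arms was above 32 in 6 of 7 in NSCs and in 6 of 7 in MEFs, so the size of the 3p folds rests on late wells there. With late and empty wells set to 32, which also adds the miR-291b hairpin, the median difference between arms was 5.65 for NSCs over ESCs and -6.58 for ESCs over MEFs. For NSCs over ESCs, the miR-291b-5p fold in that value comes from filled wells alone.

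**Figure D4:**
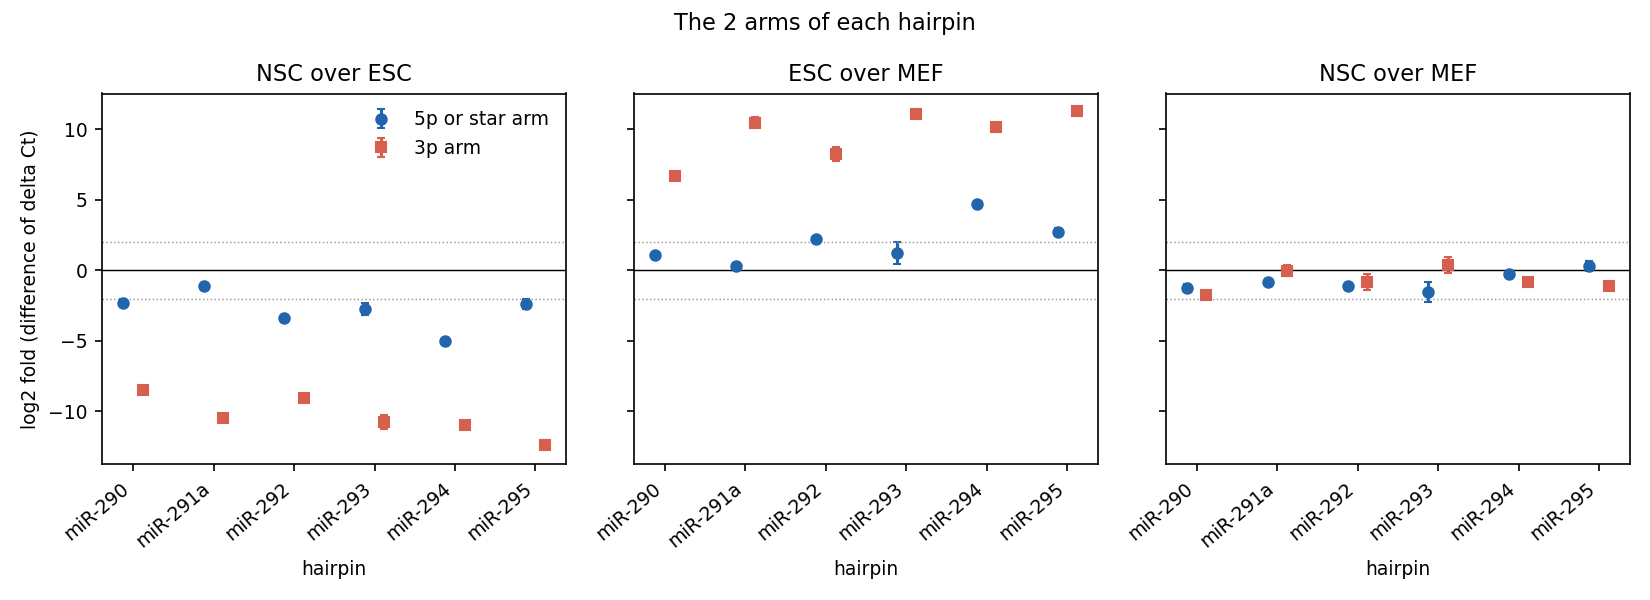
Log2 fold (difference of delta Ct) of the 5p or star arm (blue circles) and the 3p arm (orange squares) of each hairpin in 3 comparisons, with error bars for the error between PCR runs and dotted lines at a 4-fold difference. The squares lie between -12.40 and -8.47 for NSCs over ESCs, the circles between -4.997 and -1.13, and both arms lie within 2 of 0 for NSCs over MEFs.

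Among 631 other assays with all wells measured, those nearest to the members' median pattern were miR-467d*, miR-1931, miR-135b, miR-669l and miR-547, at Euclidean distances of 0.130, 0.206, 0.413, 0.429 and 0.438 cycles between delta Ct values centred over the 3 cell types. The median pattern itself was 1.30 in NSCs, -1.52 in ESCs and 0.16 in MEFs around its own mean. The assays nearest to miR-294* were others: miR-302a at 0.200, miR-1949 at 0.508, miR-429 at 0.511, miR-367 at 0.581 and miR-150 at 0.647. Of these, miR-429 and miR-367 had a mean Ct later than 32 in every cell type. In NSCs and MEFs miR-302a and miR-150 were also later than 32, as was miR-294* itself, so the likeness rests in part on late wells. miR-302a and miR-367 belong to the miR-302 cluster, the other large cluster of pluripotent cells, and miR-429 belongs to the miR-200 family of epithelial microRNAs. With 3 cell types the likeness rests on 3 values an assay.

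Of the 8 assays of the miR-302 and miR-367 cluster, 5 were called lower in NSCs than in ESCs and 5 higher in ESCs than in MEFs, with median log2 folds of -4.51 and 4.08. These 8 assays mix arms: miR-302a*, miR-302b* and miR-302c* are star assays, and the others carry no star. Their log2 folds ran from -12.85 to -0.64 for NSCs over ESCs and from 0.20 to 13.34 for ESCs over MEFs. In both comparisons miR-302b* and miR-302c* had smaller folds than the median miR-290 member, and miR-302a* had larger ones. The members' medians of -2.57 and 1.73 lay between those of this mixed list and of the star assays outside the miR-290 cluster. Of those 116 star assays, 12 were called lower and 4 higher in NSCs than in ESCs, at a median of -0.46, and 3 were called higher and 5 lower in ESCs than in MEFs, at a median of -0.10.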

How the data were processed

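The authors deposited, for each plate, the Ct of every well in cycles (2 PCR runs per sample), a delta Ct per sample, and tables of their own folds and p-values, which were not used. The rule that set a Ct was not given in the sources used here. Assays follow miRBase version 14. The deposited delta Ct equals the mean Ct minus the mean of U6, RNU43 and U1, except that 6.90 cycles more were subtracted in ESCs on plate 1, so delta Ct was computed from the deposited Ct. MEF Ct values in the study's supplementary table differ from the deposited ones for all 7 members and were not used.

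Runs were averaged, and amplification was taken as 2-fold per cycle. The run error of a log2 fold combines, in quadrature, the standard error of the runs of each cell type, and leaves out the error of the references. The computation was checked on simulated data with Python 3.11.15, pandas 2.3.3 and numpy 2.4.6. The simulated data had no empty wells and no larger run error in late wells, so those were not checked. All columns were mapped to samples. By rule the named microRNAs are the 7 members, their 3p partners, and the 5 assays nearest to the members' median and to miR-294*. The markers and the star assays of the miR-302 cluster are also named, and 6 further assays were named after their values were seen. Members and lists were chosen with earlier results of these data known. The alternatives were other references, Ct limits, single runs, 1.9-fold amplification, other fold limits and the deposited delta Ct.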

Additional observations from a re-analysis of the deposited data

How the results depend on the processing

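For NSCs over ESCs, the log2 folds of the measured members kept their sign in 64 of 64 values under the alternatives. They did so in 63 of 64 for ESCs over MEFs and in 58 of 64 for NSCs over MEFs. Part of these values could not turn. The 1.9-fold amplification only rescales a fold. Wells set to 32 or 35, late members left out and the deposited delta Ct leave many members' folds as they were. The counts are therefore no measure of how stable the signs are. Over all comparisons 105 member values moved by no more than the run error, unchanged values included, and 87 moved by more. Setting late and empty wells to 32 or 35 fills the empty NSC and ESC wells of miR-291b and so adds it as the 7th member and hairpin. No measured Ct of either arm is later than 35, so the values at 35 move through miR-291b alone. For NSCs over ESCs the members' median of -2.57 became -3.08 with U6 or U1 alone, -1.59 with RNU43, -1.89 with the mean of early microRNAs, -2.32 with late and empty wells set to 32, -2.36 without late members and -6.51 with the deposited delta Ct. For ESCs over MEFs the median of 1.73 became 1.92 with RNU43, 1.48 with U1, 1.23 with empty wells set to 35, 1.61 with run 1, 2.23 with run 2, 1.61 with 1.9-fold amplification and 5.95 with the deposited delta Ct. The deposited values carry the extra shift of the ESC column of plate 1. For NSCs over MEFs the median of -0.98 became -1.49 with U6, -1.67 with U1, -0.17 with the mean of early microRNAs and -0.77 with run 2, and turned to 0.22 with RNU43.

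The median difference between arms of 7.07 for NSCs over ESCs became 5.65 and 6.24 with late and empty wells set to 32 and 35, 6.77 with run 1, 7.37 with run 2, 6.55 with 1.9-fold amplification, 11.12 with the deposited delta Ct, and 9.36 without late members, which leaves miR-291a alone. The -7.27 for ESCs over MEFs became -6.58 and -8.55 with late and empty wells set to 32 and 35, -6.74 with 1.9-fold amplification, -11.26 with the deposited delta Ct, and -5.61 for miR-290, which alone remains without late members. For NSCs over MEFs the 0.13 became -0.38 and -0.29 with late and empty wells set to 32 and 35, and no hairpin was left without late members.

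The 4 members called lower in NSCs than in ESCs became 2 with RNU43, with the mean of early microRNAs or with a fold of at least 8, and 3 without late members. They became 5 with late and empty wells set to 32 or no Ct limit, which add miR-293*, and with the deposited delta Ct or a fold of at least 2, which add miR-291a-5p. The 3 called higher in ESCs than in MEFs became 5 with the deposited delta Ct and 1, miR-294*, with a fold of at least 8. They became 2 with U1 or without late members, and 4 with a fold of at least 2. Calls lower in ESCs than in MEFs were not counted under the alternatives. With late and empty wells set to 32 or 35, miR-291b-5p would meet the call as lower in ESCs. The 0 called between NSCs and MEFs became 1, miR-291b-5p, with late and empty wells set to 32 or 35, and 2, miR-290-5p and miR-292-5p, with a fold of at least 2. No paired analysis was possible because the labels give 1 sample per cell type and no replicate numbers. PCR runs of 1 sample give no error between cultures.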
